A study of Mus musculus with 14 samples.

Results

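PI3K, AKT and FOXO signalling was described at the transcript level in mouse tumours labelled as deficient in HIF-2α and in control tumours. The genes were chosen by name, with earlier results of these data known. They are the PI3K subunit genes Pik3ca and Pik3r1, the kinase genes Pdpk1, Akt1, Akt2 and Mtor, the transcription factor genes Foxo1 and Foxo3, and the sestrin gene Sesn3. All 9 genes were on the array, and every probeset assigned to only 1 of them was taken, which gave 21 probesets of the 22690 on the array. A probeset is a group of short probes that together read 1 transcript region.

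Total RNA of tumours from 14 mice was read on Affymetrix arrays, 1 array per mouse. The 7 deficient arrays came from mice labelled both Hif 2alpha knockdown and Hif2alpha deficient, and the 7 control arrays from mice labelled control. Both groups had a mixed 129 SvJ/C57Bl6 genetic background. The study is known for work on lung tumours, but the sources used here do not give the organ or the age of the mice. They also do not give how HIF-2α was made deficient, or whether and where part of its gene was deleted.

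PI3K is a lipid kinase that growth factor receptors and Ras switch on. Its lipid product brings AKT to the membrane, where PDPK1 and the second mTOR complex phosphorylate it. Active AKT phosphorylates FOXO factors and holds them out of the nucleus, so that FOXO target genes are transcribed when PI3K signalling is low. These steps are run largely by phosphorylation, which transcript levels do not measure.

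All values are log2 GCRMA levels, as the authors deposited them, and differences are deficient minus control. Of the 21 probesets 14 had a value above 4 in at least 7 arrays and were tested, and each of the 9 genes had at least 1 of them. The other 7 lay near the background that GCRMA sets, with values of 2.15 to 4.71, and 6 of their 98 values were above 4. They were the second probesets of Akt1 (1425711_a_at), Akt2 (1421324_a_at) and Mtor (1436267_a_at), the third of Pik3r1 (1451737_at) and Foxo3 (1450236_at), and 2 of Foxo1 (1416981_at and 1456529_at). A level there is a bound, so no difference is drawn from these 7.

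The single probeset of Epas1, which encodes HIF-2α, read 5.65 ± 0.51 in deficient tumours and 5.84 ± 0.69 in controls (SD, n = 7 each), and the difference of -0.19 lay within that spread (SE 0.30, adjusted p = 0.807 in limma). How HIF-2α was made deficient is not known here, nor where this probeset lies relative to any deleted part, so it does not check the labels. The description of each array holds 2 numbers that no source used here explains. The first number was split here into its last digit and the digits before it, called the leading part or leading number. The labels do not give this split. It made 6 leading parts, 4 among deficient arrays and 2 among controls. The second number puts all deficient arrays before all controls, so that whatever it counts cannot be told apart from the groups. The design text counts 7 mice in each group, as many as there are arrays, and the p-values measure the spread between these arrays. The median level of an array ran from 5.13 to 5.21 in deficient arrays and from 5.19 to 5.30 in controls. The difference between 3' and 5' control probesets, a measure of RNA quality, ran from 2.53 to 3.08 in deficient arrays and from 2.52 to 3.52 in controls.

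None of the 14 tested probesets passed an adjusted p of 0.05 in limma, where 0.0394% of all 12701 tested probesets did. Differences ran from -0.48 to 0.42, 8 of them positive (52.6% over all tested probesets) and 6 negative, with a median of 0.08 against 0.02 over all tested probesets. At an unadjusted p under 0.05 there were 4, which were both Foxo3 probesets, the brighter Pik3ca probeset and Sesn3, against 14.7% of all tested probesets. With the leading part of the array number as a random block, 1 of the 14 was under 0.05, Foxo3 1434832_at, against 4.72% of all tested probesets. With arrays averaged over that number it was the same 1, against 2.92%. Without the arrays that carry a suffix in their description there were 2, Sesn3 and Pik3ca 1460326_at, against 13.2%. Both Foxo3 probesets read 1 gene and are not separate evidence. An exact two-sided permutation test, which went through 3432 splits, also gave 4 under 0.05 and 0 after adjustment over all tested probesets. In 0 of the 14 did the groups lie apart without overlap, as 0.496% of all tested probesets did. With each array weighted by how well it fitted its group, limma called Foxo3 1434832_at, Pik3ca 1460326_at and Sesn3 at adjusted p-values of 0.0215, 0.0137 and 0.0296, and it then called 1900 of all tested probesets.

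**Figure D1:**
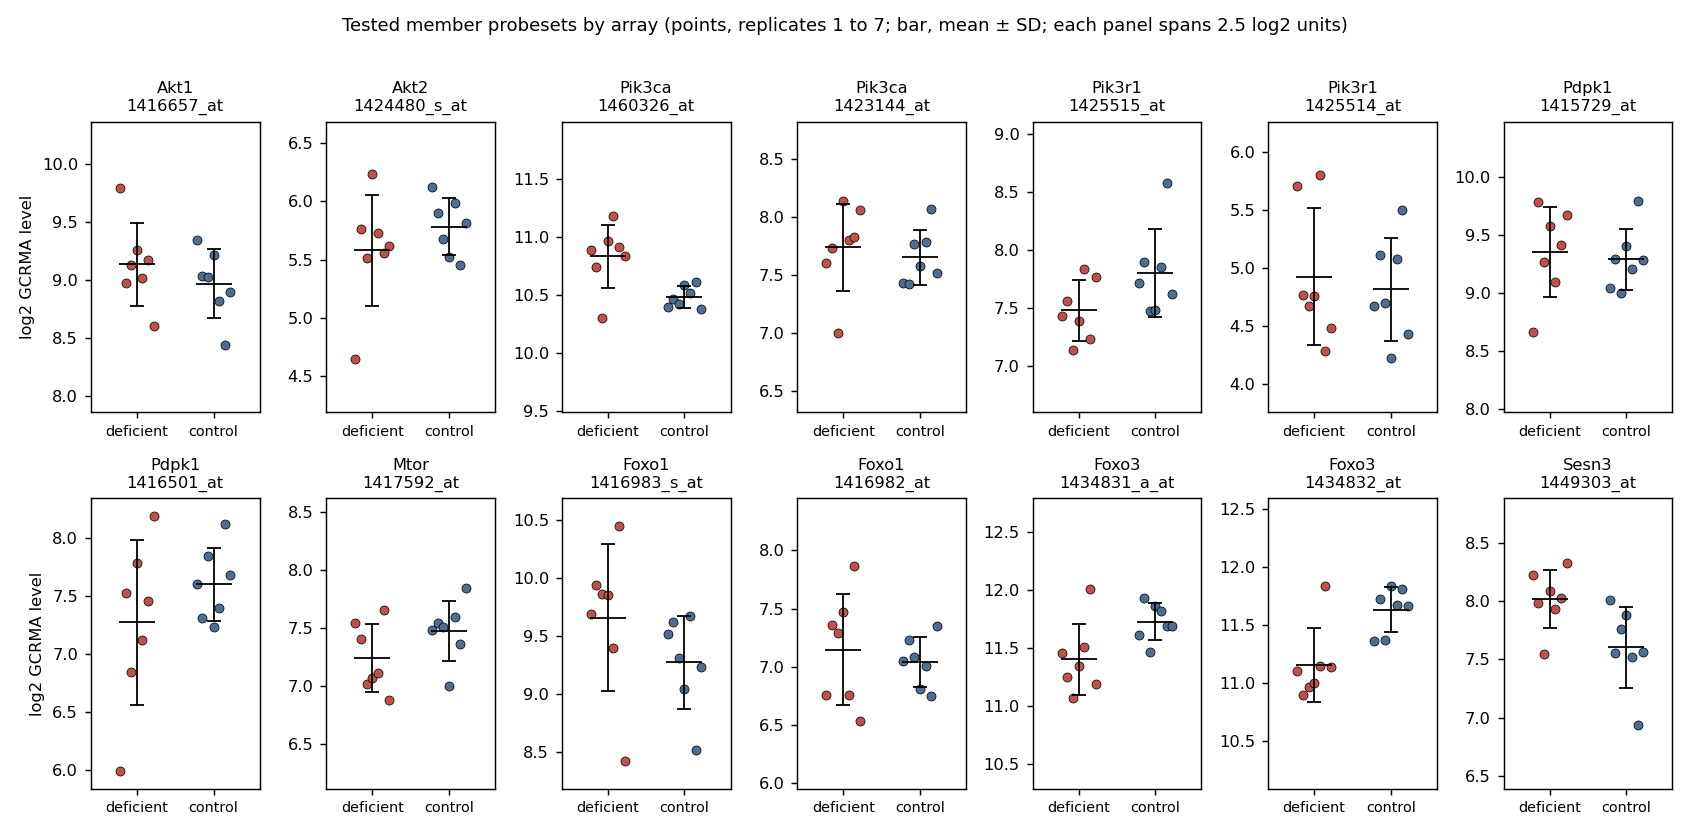
Log2 GCRMA level (y axis) of the 14 tested probesets in the 7 deficient arrays (left, red) and the 7 control arrays (right, blue); points run from replicate 1 to 7 and the bar is the mean ± SD. Foxo3 probeset 1434832_at shows 6 deficient arrays under the lowest control and 1, deficient 6, at 11.84 among the highest values, and every panel has overlapping groups.

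Foxo3 encodes a FOXO factor that promotes cell cycle arrest, stress resistance and apoptosis when it is in the nucleus. Probeset 1434832_at read from 10.89 to 11.84 with a median of 11.10 in deficient arrays, and from 11.36 to 11.83 with a median of 11.67 in controls. In 6 of 7 deficient arrays it was under the lowest control, while deficient 6 held the highest value of all 14 arrays. The difference was -0.48 (SE 0.14, 95% interval -0.78 to -0.17), or 0.718-fold, with a limma adjusted p of 0.162 and an exact permutation p of 0.00816 before adjustment. Each array was left out in turn. Without deficient 6 this probeset differed by -0.59 (limma adjusted p = 0.0428), and in none of the other refits did any of the 14 probesets pass. Of all tested probesets 30 passed without deficient 6. Over the refits the adjusted p of this probeset ran from 0.0428 to 0.337.

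The brighter Foxo3 probeset, 1434831_a_at, read from 11.07 to 12.01 with a median of 11.34 in deficient arrays, and from 11.47 to 11.93 with a median of 11.69 in controls. Again deficient 6 held the highest value, and 5 deficient arrays were under the lowest control. The difference was -0.32 (SE 0.14, limma adjusted p = 0.296). Across the 14 arrays these 2 probesets correlated at r = 0.910, and their difference within an array was 0.25 ± 0.14 in deficient tumours and 0.09 ± 0.13 in controls (SD, n = 7 each, exact permutation p = 0.0484). That was 1 of 5 such comparisons within a gene, and its p adjusted over them was 0.0940.

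Pik3ca encodes the alpha catalytic subunit of PI3K, which is often mutated in carcinomas. Its brighter probeset, 1460326_at, read from 10.30 to 11.18 with a median of 10.88 in deficient arrays, and from 10.38 to 10.61 with a median of 10.46 in controls. The 7 controls lay close together, 6 deficient arrays were above all of them, and deficient 3 was under all of them. The difference was 0.35 (SE 0.12, 95% interval 0.10 to 0.60), or 1.27-fold, with a limma adjusted p of 0.209 and an exact permutation p of 0.00874 before adjustment.

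The other Pik3ca probeset, 1423144_at, read from 7.01 to 8.14 with a median of 7.80 in deficient arrays, and from 7.42 to 8.07 with a median of 7.58 in controls. The difference was 0.08 (SE 0.17, 95% interval -0.27 to 0.44, limma adjusted p = 0.850). Deficient 3 was again under all controls, but only 1 deficient array was above all of them. With 1 array left out the difference ran from 0.018 without deficient 4 to 0.207 without deficient 3. The gap between both probesets was 3.09 ± 0.24 in deficient tumours and 2.83 ± 0.19 in controls (SD, n = 7 each, exact permutation p = 0.0420, adjusted over the 5 comparisons 0.0940). With the 2 probesets averaged the difference of Pik3ca was 0.22 (SE 0.13, limma adjusted p = 0.478).

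Sesn3 encodes sestrin 3, a stress-induced inhibitor of the first mTOR complex that also supports AKT activity and is a transcriptional target of FOXO factors. Its only probeset, 1449303_at, read from 7.55 to 8.33 with a median of 8.03 in deficient arrays, and from 6.94 to 8.02 with a median of 7.56 in controls. In 4 deficient arrays it was above the highest control, and control 6 held the lowest value. The difference was 0.42 (SE 0.16, 95% interval 0.07 to 0.76), or 1.33-fold, with a limma adjusted p of 0.258 and an exact permutation p of 0.0204 before adjustment. Foxo3 and Sesn3, a factor and a target of the family, thus differed in opposite directions, and neither passed the threshold.

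Upstream sequence is shown for the 3 genes above because HIF-2α binds a short core motif, ACGTG or GCGTG, in the regions it controls. Each is the 250 bases before the gene's start in RefSeq on build GRCm38.p6, written from 5′ to 3′ on the gene's strand. Capitals mark each match of the core motif on either strand. The Foxo3 window is chr10:42276696-42276945 on the minus strand, that of Pik3ca is chr3:32396815-32397064 and that of Sesn3 is chr9:14276051-14276300, both on the plus strand.
Foxo3: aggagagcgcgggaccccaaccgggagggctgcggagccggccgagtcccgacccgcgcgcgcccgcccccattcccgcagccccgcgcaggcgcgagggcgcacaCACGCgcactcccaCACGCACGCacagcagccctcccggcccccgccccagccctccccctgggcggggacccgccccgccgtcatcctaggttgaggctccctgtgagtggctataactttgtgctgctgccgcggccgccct
Pik3ca: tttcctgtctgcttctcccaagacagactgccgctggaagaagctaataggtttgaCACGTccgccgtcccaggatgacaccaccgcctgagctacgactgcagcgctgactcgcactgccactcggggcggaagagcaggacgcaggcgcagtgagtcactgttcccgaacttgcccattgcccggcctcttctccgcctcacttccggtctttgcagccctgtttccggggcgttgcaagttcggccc
Sesn3: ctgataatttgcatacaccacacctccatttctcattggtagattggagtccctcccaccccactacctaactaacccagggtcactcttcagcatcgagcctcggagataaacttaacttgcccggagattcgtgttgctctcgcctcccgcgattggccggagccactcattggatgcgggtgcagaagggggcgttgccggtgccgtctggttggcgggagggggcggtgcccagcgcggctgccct

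The Foxo3 window held 3 matches, of which a pair shares 1 base, that of Pik3ca held 1, and that of Sesn3 held 0. All 9 genes had windows, 15 in all, and 8 of these held the core motif. Among 32851 windows of all genes 38.6% held it, so it is common at this length. A FOXO motif, GTAAACA on either strand, was in 1 of the 15 windows, an Akt1 window, and in 3.17% of all windows. A match describes the letters only.

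**Figure D2:**
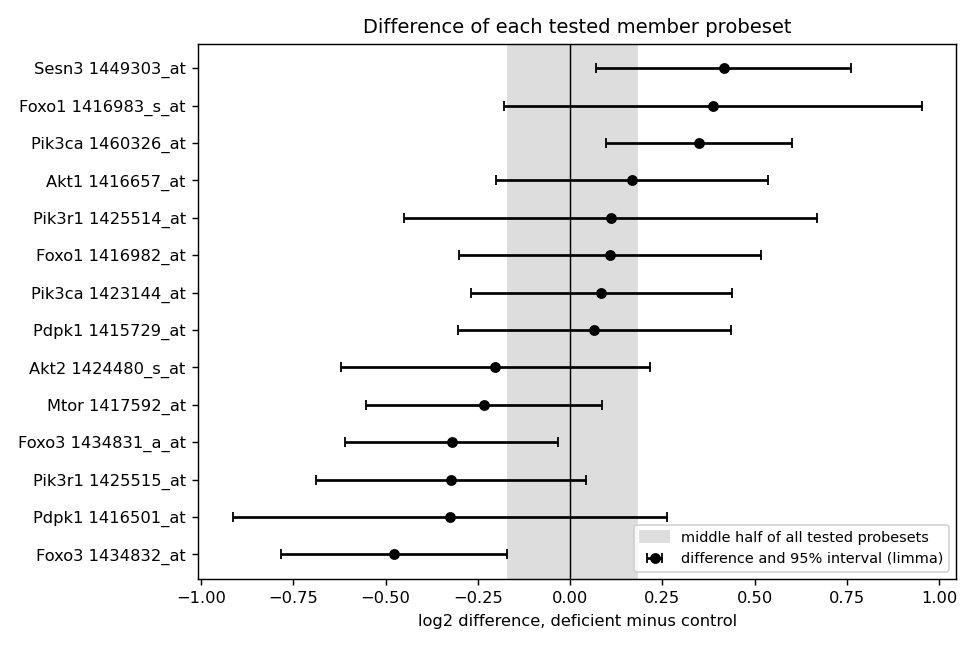
Log2 difference, deficient minus control (x axis), of each tested probeset (y axis) with its 95% interval from limma; the grey band runs between the quartiles of all tested probesets. The intervals of both Foxo3 probesets lie under 0 and those of Sesn3 and Pik3ca 1460326_at above 0, before adjustment, and the other 10 include 0.

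Foxo1 encodes the FOXO factor best known for its control of metabolic genes by insulin. Its brighter probeset, 1416983_s_at, read from 8.42 to 10.44 with a median of 9.85 in deficient arrays, and from 8.51 to 9.67 with a median of 9.31 in controls. In 5 deficient arrays it was above the highest control, while deficient 7 held the lowest value of all. The difference of 0.39 (SE 0.26, 95% interval -0.18 to 0.95, limma adjusted p = 0.528) was within the spread between arrays. It was 0.59 without deficient 7 and 0.26 without deficient 6, with an adjusted p of 0.178 and 0.714.

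The suffix of that probeset marks probes that can match more than 1 transcript. The second tested Foxo1 probeset, 1416982_at, differed by 0.11 (SE 0.19, limma adjusted p = 0.832), and by -0.01 without deficient 6. Its values ran from 6.53 to 7.87 in deficient arrays and from 6.74 to 7.35 in controls. Deficient 6 and deficient 7 were again the highest and the lowest array, so both probesets ordered these arrays alike. Across the 14 arrays they correlated at r = 0.797.

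Pik3r1 encodes the main regulatory subunit, which stabilises the catalytic subunit and restrains it until a receptor is engaged. Probeset 1425515_at read from 7.14 to 7.84 with a median of 7.43 in deficient arrays, and from 7.48 to 8.58 with a median of 7.72 in controls. In 4 deficient arrays it was under the lowest control, and control 6 stood apart at 8.58. The difference was -0.32 (SE 0.17, 95% interval -0.69 to 0.04, limma adjusted p = 0.399), and -0.19 without control 6 (adjusted p = 0.586). The other tested Pik3r1 probeset, 1425514_at, differed by 0.11 (SE 0.26, adjusted p = 0.883). In it deficient 1 and deficient 5, which share a leading number, were highest at 5.71 and 5.80, against 4.29 to 4.77 in the other deficient arrays and 4.22 to 5.50 in controls. Without either of them its sign turned, to -0.02 and -0.04.

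The kinases downstream of PI3K gave smaller or more scattered differences. Akt1 encodes the AKT kinase expressed in most tissues, and probeset 1416657_at read from 8.61 to 9.79 with a median of 9.13 in deficient arrays, and from 8.44 to 9.35 with a median of 9.03 in controls. The difference was 0.17 (SE 0.17, 95% interval -0.20 to 0.54, limma adjusted p = 0.688), and with 1 array left out it ran from 0.06 without deficient 1, the highest array, to 0.26 without deficient 7. Akt2, whose product carries insulin signals to glucose transport, read from 4.64 to 6.23 with a median of 5.61 in deficient arrays, and from 5.46 to 6.13 with a median of 5.81 in controls (probeset 1424480_s_at). Its difference of -0.20 (SE 0.20, 95% interval -0.62 to 0.22, limma adjusted p = 0.667) was -0.05 without deficient 1, here the lowest array, and -0.31 without deficient 4. Deficient 1 was thus at the top for Akt1 and at the bottom for Akt2. The Akt2 probeset carries the same suffix as Foxo1 1416983_s_at, for probes that can match more than 1 transcript.

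Pdpk1 encodes the kinase that phosphorylates the activation loop of AKT. Probeset 1415729_at had a median of 9.41 and a highest value of 9.79 in deficient arrays, against 9.28 and 9.79 in controls, a difference of 0.07 (SE 0.17, limma adjusted p = 0.895). Probeset 1416501_at of the same gene read from 6.00 to 8.19 in deficient arrays and from 7.24 to 8.12 in controls, a difference of -0.33 (SE 0.28, limma adjusted p = 0.625). Deficient 1 was the lowest array in both, and without it the differences were 0.18 and -0.11. That of 1415729_at was -0.0063 without deficient 2. The direction of Pdpk1 therefore differed between its probesets, and neither difference exceeded the spread between arrays. The gap between the probesets of a gene in deficient tumours minus that in controls was 0.39 for Pdpk1, -0.43 for Pik3r1 and 0.28 for Foxo1, with exact permutation p-values adjusted over the 5 genes of 0.0940, 0.0940 and 0.123.

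Mtor encodes the kinase of both mTOR complexes, which drive protein synthesis and, in the second complex, AKT phosphorylation. Probeset 1417592_at read from 6.88 to 7.66 with a median of 7.11 in deficient arrays, and from 7.00 to 7.85 with a median of 7.51 in controls. The difference was -0.23 (SE 0.15, 95% interval -0.55 to 0.09, limma adjusted p = 0.493). The groups overlapped, with 4 deficient arrays and control 4 under the other 6 controls.

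**Figure D3:**
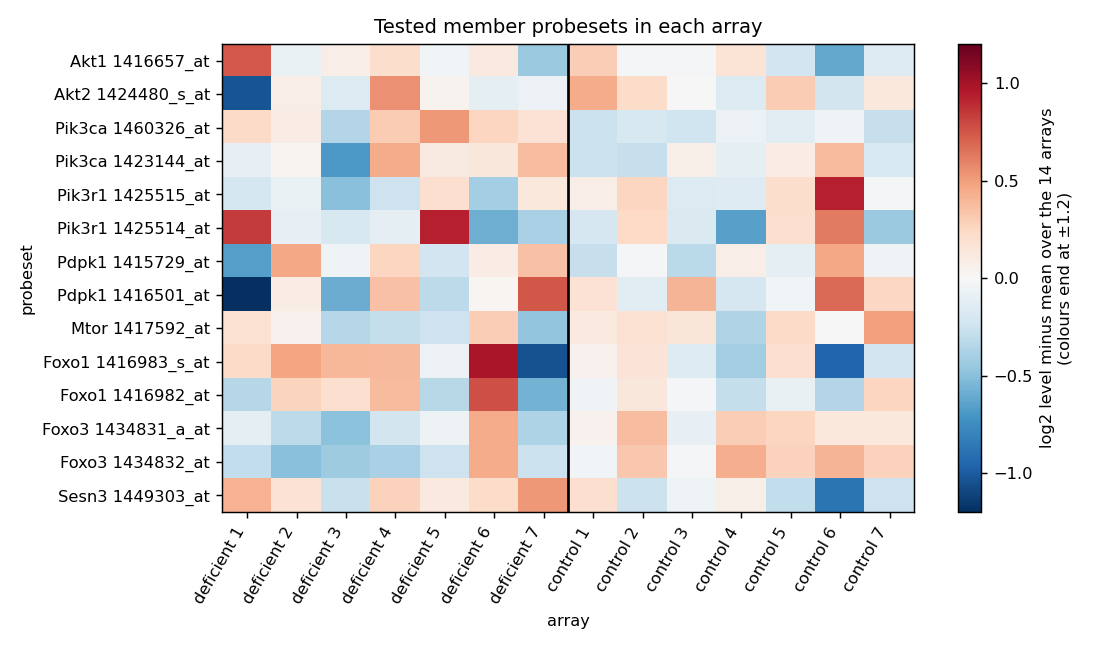
Level of each tested probeset (rows) in each array (columns, deficient left of the line, controls right) as the log2 level minus its mean over the 14 arrays; colours end at ±1.2. Deficient 1 is high for Akt1 and Pik3r1 1425514_at and low for Akt2 and Pdpk1, deficient 6 is high for Foxo1 and Foxo3, and control 6 is high for Pik3r1 and low for Akt1, Foxo1 and Sesn3.

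A few arrays held most of the extremes. Deficient 6 was the highest array for 4 of the 14 probesets, both of Foxo1 and both of Foxo3. Deficient 3 was the lowest array for 4, and deficient 1 and deficient 7 for 3 each. Among controls, control 6 was the highest for 2 and the lowest for 2. The mean absolute distance of the 14 probesets from their means over arrays was 0.49 in deficient 1, 0.42 in deficient 7 and 0.48 in control 6, against 0.13 in control 3. Earlier results of these data had set deficient 3 and 6 apart. Without both the difference was -0.58 for Foxo3 1434832_at, 0.44 for Pik3ca 1460326_at and 0.51 for Sesn3. Their limma adjusted p-values were 0.0745, 0.104 and 0.224, and 32 of all tested probesets passed in that refit. The choice came from these same data, and deficient 6 held the highest Foxo3 value and deficient 3 the lowest Pik3ca value. This refit therefore cannot serve as a check on these differences. With the random block named above and all arrays, the differences of the same probesets were -0.48, 0.34 and 0.35, each at an adjusted p of 0.989.

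**Figure D4:**
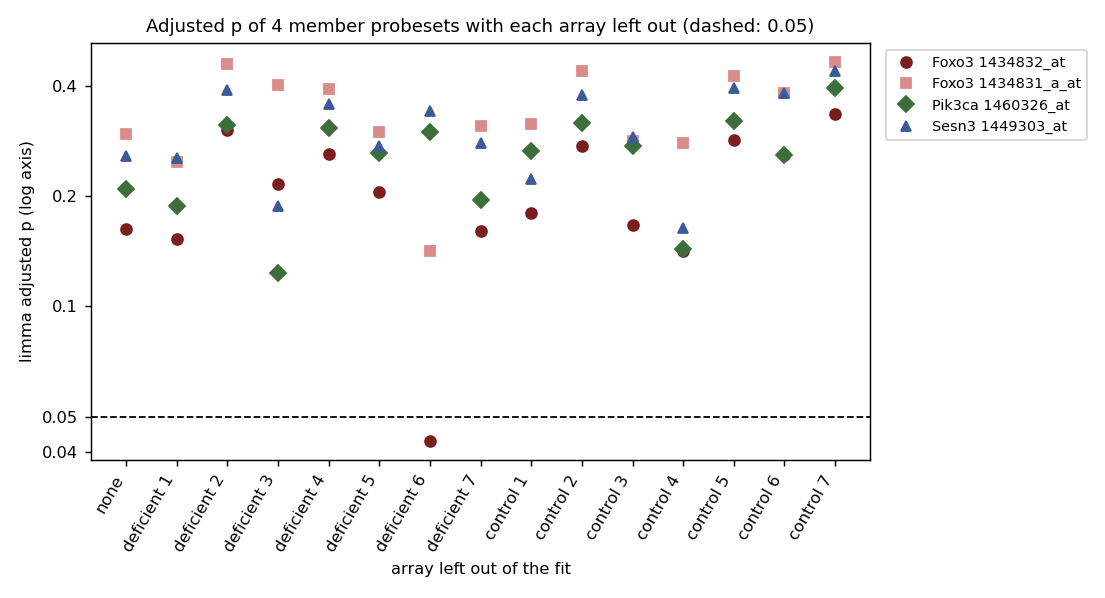
Limma adjusted p (y axis, log axis) of the 4 probesets with an unadjusted p under 0.05, with no array or 1 array left out (x axis); the dashed line is 0.05. Only Foxo3 1434832_at without deficient 6 lies under the line, at 0.0428.

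Among the 7770 other genes with a tested probeset, the 2 whose levels over the 14 arrays were most like each gene were found by Pearson's r, as a description of these arrays. For Foxo3 they were Herpud1, which encodes a protein of the endoplasmic reticulum stress response (r = 0.923), and Wdr81 (r = 0.889). For Pik3ca they were Tm9sf3 (r = 0.971) and Septin7 (r = 0.897), and for Sesn3 the ribosomal S6 kinase gene Rps6ka3 (r = 0.900) and Tmem30a (r = 0.866). With each group's mean removed, r was 0.910 for Herpud1, 0.948 for Tm9sf3 and 0.846 for Rps6ka3. For Foxo1 they were Chic2 and Fam8a1, for Pik3r1 Srsf4 and Ifi35, for Akt1 Ncbp3 and 2700097O09Rik, for Akt2 Ifi30 and Ndufb8, for Pdpk1 Ska2 and Dph7, and for Mtor Tdrd7 and Selenbp1, at r of 0.854 to 0.944. The points share arrays and their normalisation, and the 2 of each gene were picked as the highest of many.

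The rest of the pathway was read from 7 lists of other genes, 117 in all, of which 79 were tested through their brightest probeset. Limma called 0 of the 79, as did the exact permutation test after adjustment. At an unadjusted p under 0.05 there were 5 higher and 7 lower in deficient tumours, where 8.09% of all tested probesets were higher and 6.57% lower. With the leading part of the array number as a random block these 12 became 2, against 4.72% of all tested probesets. With arrays averaged over it they became 0, against 2.92%. The 7 lower genes include Egfr and Irs2, whose deficient means lay under 4, the level of the filter. The median difference was -0.02 against 0.02 over all tested probesets.

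**Figure D5:**
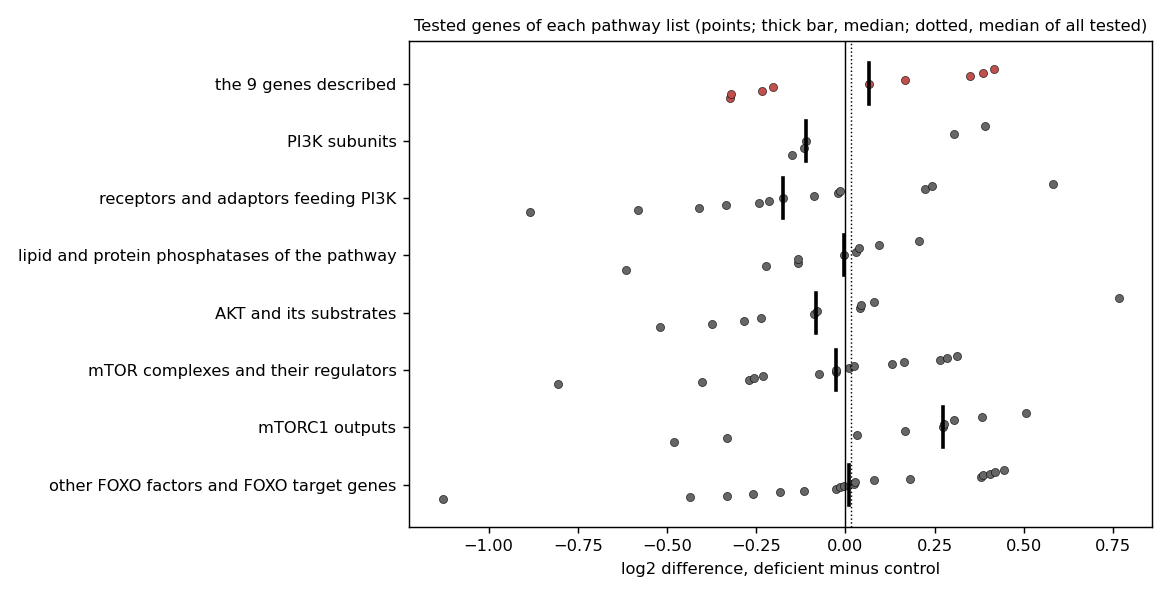
Log2 difference, deficient minus control (x axis), of the tested genes of each pathway list (rows, points) with the median (thick bar) and the median of all tested probesets (dotted line). Medians lay between -0.18 for receptors and adaptors and 0.27 for mTORC1 outputs, and the points of each list lie on both sides of 0. The receptor and adaptor points include Egfr and Irs2, whose deficient means lay under 4.

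Upstream of PI3K, 3 of 13 tested receptor and adaptor genes had positive differences and 10 negative ones, with a median of -0.18. The EGF receptor gene Egfr read from 3.64 to 4.20 in deficient arrays and from 3.86 to 6.13 in controls (limma adjusted p = 0.197). The insulin receptor substrate gene Irs2, also a known FOXO target, read from 2.15 to 4.20 in deficient arrays and from 4.10 to 4.57 in controls (limma adjusted p = 0.325), with deficient 1 at 2.15 and the next at 3.53. Egfr was above 4 in 3 deficient arrays and 6 controls, and Irs2 in 3 deficient arrays and 7 controls. The deficient mean of both genes lay under 4, so no difference is drawn from them. The counts and the median of this list nevertheless include both. They were also its only 2 genes at an unadjusted limma p under 0.05. Fgfr2, which encodes an FGF receptor of epithelium, differed by 0.22 (SE 0.12, limma adjusted p = 0.386).

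Of 5 other PI3K subunit genes tested, 2 had positive and 3 negative differences, with a median of -0.11. Pik3c2a, which encodes a class II PI3K, differed by 0.39 (SE 0.18, limma adjusted p = 0.344) and Pik3c3, which encodes the class III enzyme of autophagy, by -0.15 (SE 0.10, limma adjusted p = 0.537). Among 9 phosphatase genes 4 differences were positive and 5 negative (median -0.004). Ppp2r1a, which encodes the scaffold of protein phosphatase PP2A, an enzyme that dephosphorylates AKT, differed by 0.21 (SE 0.09, limma adjusted p = 0.328), and its 4 other tested probesets differed by 0.09 to 0.26. Inpp5d, which encodes the leukocyte lipid phosphatase SHIP, differed by -0.61 (SE 0.31, limma adjusted p = 0.381).

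Among 10 genes of AKT substrates and partners 4 differences were positive and 6 negative (median -0.08). Ilk, which encodes integrin-linked kinase, read from 9.10 to 9.43 with a median of 9.18 in deficient arrays, and from 9.26 to 9.75 with a median of 9.55 in controls. It was under the control mean in 7 of 7 deficient arrays and the groups overlapped (-0.28, SE 0.10, limma adjusted p = 0.220). Sgk1, which encodes an AKT-related kinase, differed by -0.52 (SE 0.29, limma adjusted p = 0.422), and by -0.34 without deficient 3.

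Of 15 genes of the mTOR complexes and their regulators 7 had positive and 8 negative differences (median -0.03). Lamtor3, which encodes part of the lysosomal Ragulator complex that recruits mTORC1, was above the control mean in 7 of 7 deficient arrays, at 9.84 ± 0.17 in deficient tumours and 9.57 ± 0.14 in controls (SD, n = 7 each, difference 0.26, SE 0.10, limma adjusted p = 0.252). Its partner Lamtor1 differed by -0.03 (SE 0.11, limma adjusted p = 0.937), and by 0.0136 without control 3. Ddit4l, which encodes a relative of the mTORC1 inhibitor REDD1, differed by -0.80 (SE 0.33, limma adjusted p = 0.286), with control 4 apart from the other controls at 8.42. Without control 4 it differed by -0.53 (limma adjusted p = 0.249). Stk11, named after its values were seen, encodes the kinase LKB1 upstream of AMPK and differed by -0.40 (SE 0.17, limma adjusted p = 0.292).

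Of 9 genes on the output side of mTORC1 7 had positive differences and 2 negative ones, with a median of 0.27. Eif4e, which encodes the cap-binding translation factor, read from 9.55 to 9.80 with a median of 9.65 in deficient arrays, and from 8.97 to 9.73 with a median of 9.28 in controls. All 7 deficient arrays were above the control mean, and the groups overlapped. The difference was 0.38 (SE 0.11, limma adjusted p = 0.159), with 0.24 in its other tested probeset. Without control 4 it was 0.46 and passed, at a limma adjusted p of 0.0486. In that refit 85 of all tested probesets passed, against 5 with all arrays. Rps6kb2, which encodes an S6 kinase, differed by -0.48 (SE 0.20, limma adjusted p = 0.280), and the translation inhibitor gene Pdcd4 by 0.51 (SE 0.24, limma adjusted p = 0.342).

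Among 18 tested genes that are FOXO targets or relatives, 9 had positive and 9 negative differences, with a median of 0.01. Cat, which encodes catalase, was at 11.44 ± 0.22 in deficient tumours and 11.04 ± 0.20 in controls (SD, n = 7 each), above the control mean in 7 of 7 deficient arrays (0.41, SE 0.12, limma adjusted p = 0.162), with 0.38 in its other tested probeset. Cdkn1b, which encodes the cell cycle inhibitor p27, differed by 0.44 (SE 0.15, limma adjusted p = 0.206) but by -0.30 in its other tested probeset. Txnip, which encodes a thioredoxin inhibitor, was under the control mean in 7 of 7 deficient arrays (-0.26, SE 0.13, limma adjusted p = 0.384) and differed by -0.66 in its other tested probeset. Pdk4, named after its values were seen, encodes a kinase that turns off pyruvate dehydrogenase. It read from 7.32 to 10.87 in deficient arrays and from 9.54 to 11.71 in controls, with the most negative difference of the list (-1.13, SE 0.49, limma adjusted p = 0.314). The FOXO targets thus lay on both sides of 0, like Foxo1 and Foxo3 themselves.

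Genes of other cell types were read from marker lists in the same arrays, and limma called 0 of them. Of 8 club and secretory cell markers 7 had negative differences, 6 of them at an unadjusted p under 0.05 (6.57% over all tested probesets). The mean level of that list ran from 9.49 to 10.62 in deficient arrays and from 10.34 to 12.69 in controls. All 3 tested ciliated cell markers had negative differences at an unadjusted p under 0.05. Their mean level was 3.81 to 8.33 in deficient arrays and 6.84 to 10.55 in controls. Rsph1 had a deficient mean of 3.82, and Lrrc23 read as low as 2.44 in deficient arrays. Levels under 4 are limited by the background, so no size of difference is drawn from Rsph1 and Lrrc23. Of the 3 only Tppp3 was above 4 in every array, with a difference of -2.32 (SE 0.57, limma adjusted p = 0.132). Differences were also negative for 10 of 10 endothelial genes (5.41 to 8.40 in deficient arrays, 7.17 to 8.24 in controls) and 8 of 9 fibroblast and matrix genes (8.87 to 9.74 in deficient arrays, 9.36 to 10.30 in controls). The same held for 7 of 8 macrophage genes (7.997 to 9.73 in deficient arrays, 8.47 to 10.09 in controls) and 6 of 7 alveolar type I genes (9.49 to 11.21 in deficient arrays, 10.67 to 11.23 in controls). Lower at an unadjusted limma p under 0.05 were 1 endothelial, 4 fibroblast and matrix, 3 macrophage and 1 alveolar type I gene. Over all tested probesets 6.57% were, and 52.6% of differences were positive.

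Of 9 alveolar type II markers 7 had positive differences, and their mean level of 12.25 to 12.88 in deficient arrays and 12.56 to 12.75 in controls was high in every tumour. All 4 smooth muscle genes had negative differences (6.58 to 8.45 in deficient arrays, 6.86 to 9.16 in controls), as had 3 of 4 T and NK cell genes (5.01 to 6.12 in deficient arrays, 5.00 to 6.72 in controls). In the smooth muscle list and in the T and NK cell list 1 gene each was lower at an unadjusted limma p under 0.05. Of 3 B and plasma cell genes 2 had positive differences (7.16 to 9.14 in deficient arrays, 7.62 to 8.38 in controls). Among defining markers, Dnah5, Lum, Cd4 and Cd8a were above 4 in 0 of 14 arrays, Cnn1 in 1 and Foxj1 in 3. In bulk tumours fewer cells of a type and less RNA per cell cannot be told apart, and the part of these cell types in the differences of the 9 genes was not tested.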

How the data were processed

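Expression arrays of 7 deficient and 7 control tumours were analysed. The authors deposited 1 log2 value per probeset and array. The tool was GCRMA, according to the notes of the submitters on processing; it estimates background from each probe's bases, makes arrays comparable by quantiles and combines the probes of a probeset. No version is named in these notes. The number of arrays limits the precision.

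Probesets were named from the platform annotation, with gene IDs checked in RefSeq. Of 22690 probesets 64 were controls, 20380 had 1 gene, 691 several and 1555 none. Probesets above 4 in at least 7 of 14 arrays were tested (12701). A gene with several probesets was represented in lists by its brightest one on average. The test was limma 3.58.1 under R 4.3.3 (lmFit, eBayes, group only), two-sided, with Benjamini-Hochberg adjustment over all tested probesets and a threshold of 0.05. The code was tested on simulated data. Exact permutation tests were two-sided over 3432 splits, with a smallest p of 0.000583.

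Named genes are the 9 genes, from each pathway list the 2 of smallest p and the 1 of highest level, and the 2 most alike to each of the 9. Some list genes had no probeset with 1 gene and were not analysed here. The 9 genes and all lists were chosen with earlier results of these data known. Alternatives covered the filter, normalisation, variance model, array weights, array numbers, RNA quality, threshold, test and left-out arrays.

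The titles number the arrays of both groups from 1 to 7. Deviations of same-numbered arrays from their group means correlated at -0.23 to 0.22, so the numbers were not taken as pairs.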

Additional observations from a re-analysis of the deposited data

Results flagged for a closer look

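A single array stood far from the rest of its group of 7, by the gap to its nearest neighbour relative to the group's range, in 2 of 28 groups of values of the 9 genes. Foxo3 probeset 1434832_at read 11.84 in deficient 6 and at most 11.14 in the other deficient arrays. Pik3r1 probeset 1425515_at read 8.58 in control 6 and at most 7.90 in the other controls. Over all 64 groups of values examined, with the other pathway genes named, 4 stood out, and chance gives about 1 in 20. The other 2 were Irs2 at 2.15 in deficient 1, with the next array at 3.53, and Ddit4l at 8.42 in control 4, with the next at 6.84.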

How the results depend on the processing

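The differences of the 14 tested probesets were recomputed under 400 combinations of probeset and setting. The direction and the side of the threshold held in 386, a call was gained in 4, and the sign turned in 10, at sizes of at most 0.13. Array weights gave 3 calls among the 9 genes and 15 among the other pathway genes, against 0 and 0. These weights ran from 0.277 for deficient 1 to 4.15 for control 5, and the calls over all probesets were 1900 against 5. Calls with 1 array left out ran from 0 to 1 for the 9 genes (1 without deficient 6) and from 0 to 1 for the other pathway genes (1 without control 4).

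The sign turned in 4 probesets. Without arrays that carry a suffix in their name, differences were -0.0068 for Pik3ca 1423144_at, -0.0468 for Pdpk1 1415729_at and -0.0366 for Foxo1 1416982_at. Array weights gave -0.0909 for Pik3r1 1425514_at, averaged probesets -0.13 for Pdpk1, and leaving out deficient 3 and 6 gave -0.0659 for Foxo1 1416982_at. With 1 array left out, Pik3r1 1425514_at ran from -0.0355 to 0.224, Pdpk1 1415729_at from -0.0063 to 0.181 and Foxo1 1416982_at from -0.0124 to 0.211. The cause was not tested.

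Over all tested probesets the 5 calls were 0 with no filter, 9 with a trended and robust variance, 0 where the leading number was a random block or was averaged over, 0 without suffixed arrays, 32 without deficient 3 and 6, 11 at a threshold of 0.10 and 0 by exact permutation. The counts over all probesets, those by exact permutation or at an unadjusted p, and the other pathway genes' values with 1 array left out were added after seeing the data. With 1 array left out they ran from 0 (without deficient 2 or 4) to 85 (without control 4), with 30, 13 and 11 without deficient 6, 7 and 1, and 1 each without control 2, 5, 6 or 7. With the replicate number as a block, 2 of all tested probesets were called, 0 of the 9 genes and 0 of the other pathway genes, and Foxo3 1434832_at had a limma adjusted p of 0.241. The block changed no call among these genes. Levels near 4 or under it are limited by the background, which bears on Egfr, Irs2, Akt2, Pik3r1 1425514_at and the 7 probesets that were not tested. It also bears on some marker genes, Rsph1 and Lrrc23 among them.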
